A study of Rattus norvegicus with 2 samples.

Results

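Levels of 5 genes of the interleukin 6 and acute-phase response were compared in cultured mesenchymal stem cells from rat bone marrow (bmMSCs), stromal cells that grow attached to plastic. The genes are Il6, Cebpd, A2m, Serpina3n and Timp1, and they were picked by symbol from a deposited table of 2325 rows, in which all 5 were found. They were chosen with their reads in both libraries in view, so their changes are a description and carry no test. RNA came from bmMSCs of Sprague-Dawley rats at passages 3 to 5. One library was made from untransfected cells, the submitters' negative control, and 1 library from cells taken 10 days after transfection with Pdx1 and Ngn3, transcription factors of pancreatic and endocrine development. The control was not mock-transfected, so the procedure and the introduced genes differ together between the libraries. The sources used here do not give the vector, the share of cells that took it up or the number of rats.

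Interleukin 6 is a secreted cytokine. It binds a receptor chain of its own (gene Il6r) and then the shared signalling chain gp130 (gene Il6st). Jak kinases on gp130 phosphorylate the transcription factor Stat3, Stat3 targets include the inhibitor Socs3 and the factor Cebpd, and the best-known output in liver is a set of plasma proteins called the acute-phase proteins. Several of them inhibit proteases, among them alpha-2-macroglobulin, the classical acute-phase protein of the rat. Stromal cells of bone marrow are a known source of interleukin 6.

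Reads were scaled by the library total that the deposited reads, gene lengths and RPKM imply. This depth was 7800831 reads in untransfected and 7415094 in transfected cells. RPKM scales reads by gene length and by library total, so levels can be compared between genes as far as the deposited lengths are right. Each member's length is that of 1 sequence record. The records of A2m, Serpina3n and Timp1 do not name a complete coding sequence. Intervals are exact 95% intervals that cover counting error only. With 1 library per group there is no replicate check and no p-value. The table had been filtered by the authors for changed genes: with a ratio of at least 2 and an interval without 1 as the call, 63.5% of all rows were higher and 36.5% lower in the transfected library. A call of higher for a row of this table is therefore common, and the median ratio over all rows was 2.36. All 5 genes were called higher, which their choice fixed. Pdx1, as a check of the labels, had 0 reads in the untransfected and 565 in the transfected library, and the reads of the introduced and the rat's own gene cannot be separated. In RNA from whole cultures, more cells of a type and more RNA per cell cannot be told apart.

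Il6, the ligand, was counted 133 times in the untransfected and 1446 times in the transfected library. Its level went from 16.3 RPKM (interval 13.6 to 19.3) to 186 RPKM (177 to 196). The ratio was 11.4 (interval 9.57 to 13.8), larger than in 87.3% of the 1476 rows called higher. The 250 bases before its annotated start, from RefSeq (build GRCr8, chr4:5894576-5894825, minus strand), are shown because they hold matches to known inducible elements, in capitals.

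Il6: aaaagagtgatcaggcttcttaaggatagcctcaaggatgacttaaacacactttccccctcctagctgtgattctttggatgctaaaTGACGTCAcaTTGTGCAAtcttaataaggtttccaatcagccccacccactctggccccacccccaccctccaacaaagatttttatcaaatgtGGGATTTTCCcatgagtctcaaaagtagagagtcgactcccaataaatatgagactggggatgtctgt

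The 3 capital runs are, in order, a cyclic AMP response element 162 to 155 bases before the start, a C/EBP site 152 to 145 bases before it, and an NF-kappa-B site 68 to 59 bases before it. The letters searched on both strands were TGACGTCA, TTNNGNAA, and GGG and TTTCC with any 2 bases between them. The cyclic AMP element was added after the sequences were seen. Among 33469 RefSeq promoters, the same window held the NF-kappa-B letters in 1.3%, the cyclic AMP element in 1.59% and the loose C/EBP letters in 37.2%. A match is a run of letters and not a measured binding site.

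Cebpd, which encodes the transcription factor C/EBP delta, was the member with the smallest ratio. It had 141 and 388 reads, or 15.9 RPKM (13.4 to 18.7) in untransfected and 45.9 RPKM (41.5 to 50.7) in transfected cells. The ratio was 2.89 (interval 2.38 to 3.54), larger than in 39.5% of the rows called higher. This call was not kept when the libraries were scaled in other ways, where the ratio was 1.69 with TMM and 1.26 with median-of-ratios factors. Of 6 Cebp genes with a RefSeq symbol, Cebpd was the one found in the table by symbol.

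Serpina3n, a secreted serine protease inhibitor of the antichymotrypsin type, had the largest ratio of the 5 genes. The reads were 38 in untransfected and 5858 in transfected cells. Its level was 1.46 RPKM (1.03 to 2.0) against 236 RPKM (230 to 242), a ratio of 162 (interval 118 to 229) at rank 11 of all 2325 rows. It belongs to a cluster of close copies, 6 with a RefSeq symbol of the Serpina3 form, and no other copy was found in the table by symbol. The sources used here do not say how reads shared between copies were counted, so the value is uncertain in that respect. The 250 bases before its start (GRCr8, chr6:129088142-129088391, plus strand) are shown because they hold the one Stat match among the 3 promoters read.

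Serpina3n: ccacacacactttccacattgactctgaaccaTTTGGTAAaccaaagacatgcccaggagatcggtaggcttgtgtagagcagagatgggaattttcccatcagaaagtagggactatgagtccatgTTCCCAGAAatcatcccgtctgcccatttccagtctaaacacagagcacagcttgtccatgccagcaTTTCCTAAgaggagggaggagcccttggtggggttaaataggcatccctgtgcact

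The middle capital run matches the Stat letters TTCNNNGAA 123 to 115 bases before the start. The interleukin 6 response core CTGGGAA lies inside the same run on the other strand, so both are 1 place. The outer runs are matches to the C/EBP letters, 218 to 211 and 56 to 49 bases before the start. Stat letters were in 7.67% and the response core in 9.56% of all promoters of that length. In the rows of this table with a promoter entry, Stat letters were in 6.56% of 900 higher and 5.42% of 572 lower genes. The response core went the other way, with 8.11% of the higher and 10.5% of the lower genes. The same window of Timp1 (chrX:3771123-3771372, minus strand, at 1 of several annotated starts) held no match to any of the 6 motifs searched, which included the AP-1 letters TGANTCA. No AP-1 match was found for Il6 or Serpina3n either, and A2m and Cebpd had no entry. Sites that depart from the searched letters would be missed.

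**Figure D1:**
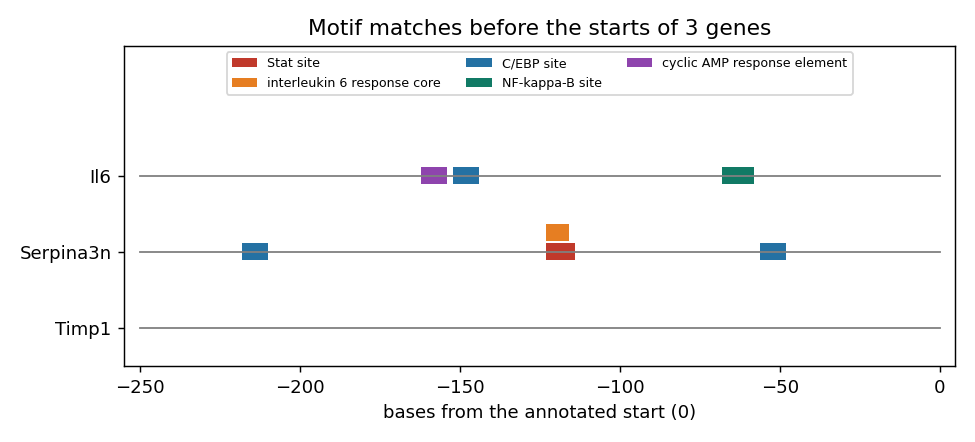
Motif matches in the 250 bases before the annotated starts of Il6, Serpina3n and Timp1. The horizontal axis is the distance from the start in bases, and each coloured box is 1 match on either strand. Il6 has 3 matches, Serpina3n has C/EBP matches on both sides of a Stat match that overlaps the response core, and Timp1 has none.

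A2m, alpha-2-macroglobulin, traps proteases of many classes and carries them to a clearance receptor. It was the least abundant of the 5 genes in both libraries. The reads were 21 in untransfected and 1213 in transfected cells, which gave 0.561 RPKM (0.348 to 0.858) and 34.1 RPKM (32.2 to 36.1). The ratio was 60.8 (interval 39.6 to 98.5), at rank 27 of 2325. Its width comes from the 21 reads of the untransfected library. None of the relatives of A2m in the alpha-macroglobulin list, nor its receptor Lrp1, was found in the table by symbol.

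Timp1, an inhibitor of matrix metalloproteinases, was the most abundant of the 5 genes in both libraries. It had 1576 and 6105 reads, or 235 RPKM (224 to 247) and 960 RPKM (936 to 984), and only 15 rows of the table were more abundant in transfected cells. The ratio was 4.08 (interval 3.86 to 4.31), larger than in 58.7% of the rows called higher. It was 2.38 with TMM and 1.77 with median-of-ratios factors, the latter below the ratio of 2 used for a call.

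**Figure D2:**
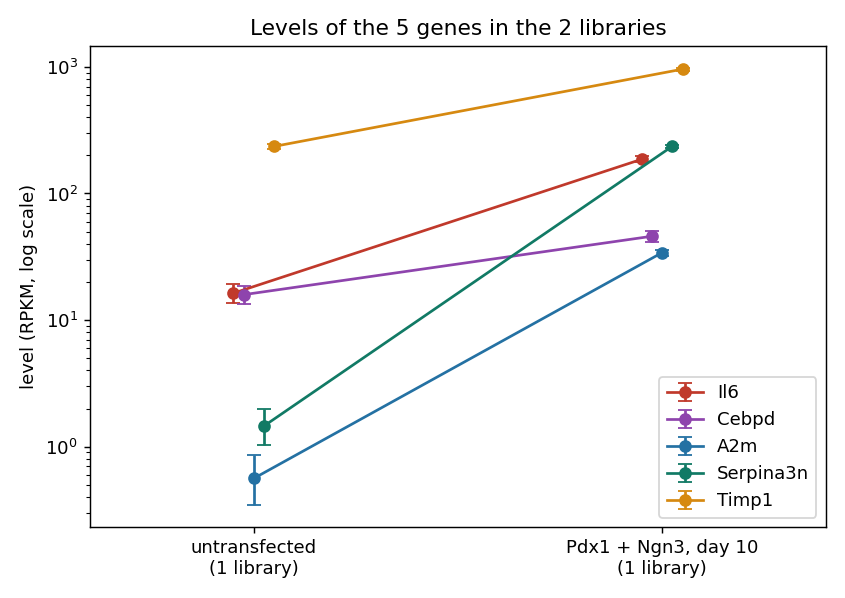
Levels of Il6, Cebpd, A2m, Serpina3n and Timp1 in the untransfected and the transfected library, in RPKM on a log axis. Points are single libraries, bars are exact 95% Poisson intervals, and lines join the values of 1 gene. Serpina3n starts at 1.46 RPKM and ends at 236 RPKM, above Il6 at 186 RPKM.

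The order of the levels differed between the libraries. In untransfected cells it ran Timp1, Il6, Cebpd, Serpina3n, A2m, and the intervals of Il6 and Cebpd overlapped while those of the other neighbours did not. In transfected cells it ran Timp1, Serpina3n, Il6, Cebpd, A2m, and no neighbouring intervals overlapped. Serpina3n thus lay below Il6 and Cebpd in one library and above both in the other. Together the 5 genes took 0.0245% of the untransfected and 0.202% of the transfected reads.

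Ratios of levels between members within a library do not depend on how the libraries are scaled. The level of Serpina3n over that of Cebpd was 0.0918 (interval 0.0624 to 0.132) in untransfected and 5.14 (4.64 to 5.71) in transfected cells. The level of Il6 over that of Cebpd was 1.03 (0.804 to 1.31) and then 4.06 (3.63 to 4.55). The level of Serpina3n over that of A2m, the members with the largest ratios, was 2.59 (1.48 to 4.65) and then 6.92 (6.51 to 7.37). The smallest shift among the 10 member pairs was that of Timp1 over Cebpd, 14.8 (12.5 to 17.8) and then 20.9 (18.8 to 23.2). In all 10 pairs the intervals of the 2 libraries did not overlap, so between these libraries the 5 genes differed by unequal amounts beyond counting error.

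**Figure D3:**
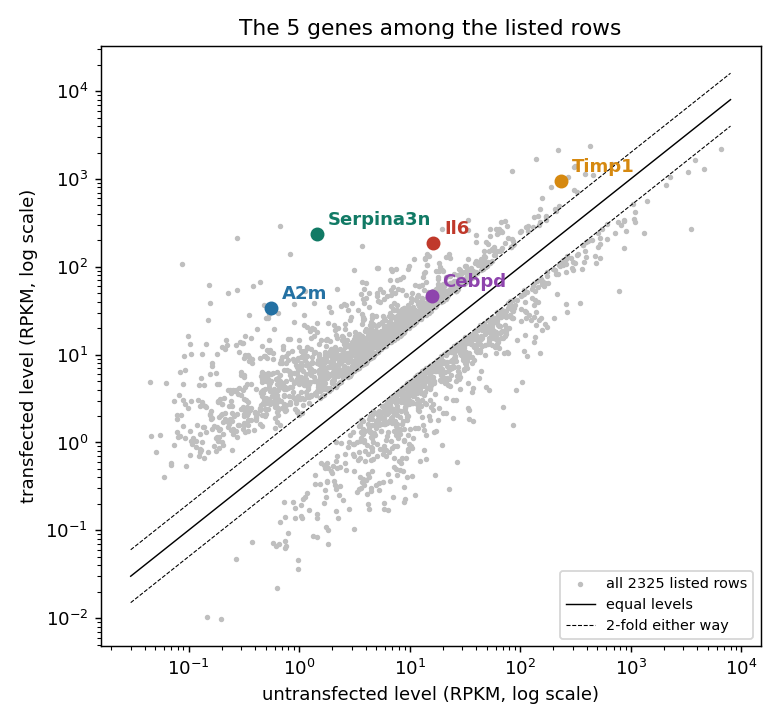
Transfected against untransfected level in RPKM, both on log axes, for the 2325 rows of the table in grey and the 5 genes in colour. Rows with 0 reads are drawn at 3 reads, the solid line marks equal levels and the dashed lines 2-fold differences. Serpina3n and A2m lie near the upper edge of the grey rows at their untransfected level, and Cebpd lies close to the 2-fold line.

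The choice of library scaling matters for the smaller ratios. TMM and median-of-ratios factors, computed on rows selected for change, shifted every log2 ratio by -0.78 and -1.20. All 5 genes stayed above a ratio of 1 under both. Serpina3n was at 94.7 and 70.5, A2m at 35.5 and 26.4, and Il6 at 6.68 and 4.97. TMM left 31.6% of the rows called higher, Cebpd not among them, and median-of-ratios factors left 22%, with Il6, A2m and Serpina3n among them. With a coefficient of variation of 0.4 assumed between cultures, the interval of Cebpd reached from 0.94 to 8.92 and that of Timp1 from 1.34 to 12.4, and 33.5% of the rows were called higher.

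**Figure D4:**
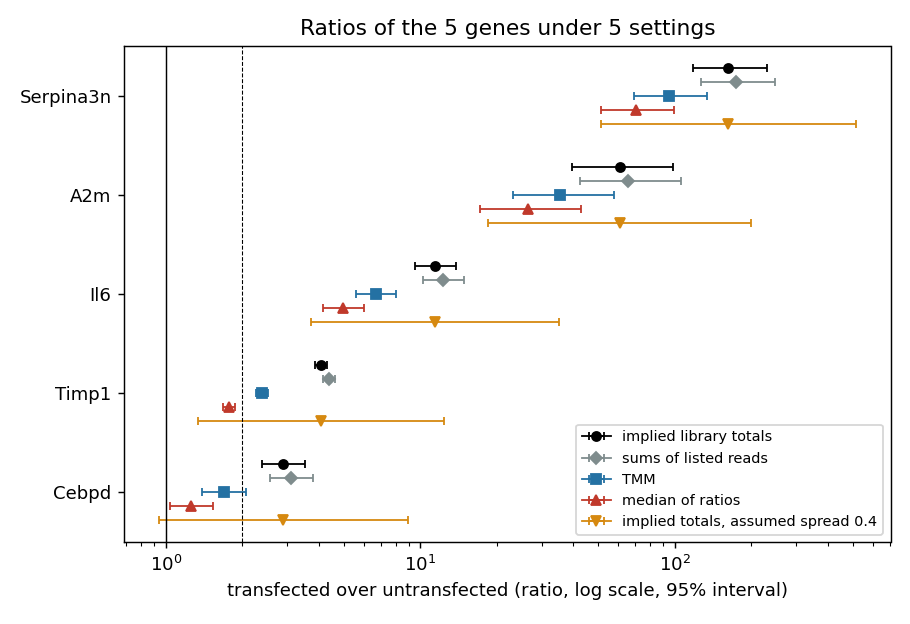
Ratio of transfected to untransfected cells for the 5 genes on a log axis, with 95% intervals, under 4 library scalings and with a coefficient of variation of 0.4 assumed between cultures. The solid line marks 1 and the dashed line 2. Serpina3n, A2m and Il6 lie right of the dashed line in every setting, and Cebpd is at 1.69 and 1.26 with TMM and median-of-ratios factors.

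Lists of related genes, 16 in all, were set up from general knowledge of the pathway with earlier results of these data known. Of the 62 list genes in the table, 48 were higher and 14 lower, with a median log2 ratio of 1.59 against 1.24 over all rows. Without the 5 members, 43 of 57 (75.4%) were higher, against 63.5% of all rows, with a median of 1.39. Because each row had already passed the authors' filter, genes of a list outside the table were not analysed here. Any ratio given below that lies between 1 and 2.30 turns to under 1 with median-of-ratios scaling.

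The receptors of the interleukin 6 family went both ways. Il6st, the shared chain gp130, had 3722 and 14281 reads, or 64.0 and 258 RPKM, and was 4.04-fold higher (3.89 to 4.19). Il6r, the chain that binds interleukin 6 itself, had 57 and 20 reads, or 1.58 and 0.585 RPKM, and was 2.71-fold lower (1.60 to 4.76). The shared chain was thus far more abundant than the specific chain in both libraries, and the gap was wider in the transfected library. Il6st was no longer called with median-of-ratios factors, nor Il6r with the assumed variation.

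Below the receptor, the kinases Jak1 and Jak2 were the listed members of 11 Jak and Stat genes. Jak1 was at 32.1 and 74.7 RPKM with a ratio of 2.33 (2.16 to 2.50). Jak2 was at 10.8 and 23.7 RPKM with a ratio of 2.20 (1.92 to 2.53), which went to the other side of 1 under median-of-ratios scaling. Neither kinase kept its call: with TMM, with median-of-ratios factors and with the assumed variation, 0 of the 2 were called, and Jak1 was at 1.36 and 1.01 with the TMM and median-of-ratios factors. The feedback inhibitors Socs2 and Socs3, which shut off cytokine receptors and their kinases, were both higher at low levels. Socs3 had 7 and 70 reads and a ratio of 10.5 (4.85 to 27.1), and Socs2 had 5 and 64 reads and a ratio of 13.5 (5.48 to 42.9). Their intervals are wide because the untransfected reads are few.

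Of 17 Stat3-responsive regulators 5 were in the table, 4 higher and 1 lower, where 63.5% of all rows were higher. Egr1, an immediate-early transcription factor, was 6.85-fold higher (5.85 to 8.07). Fos, an AP-1 subunit named after its values were seen, had 18 and 94 reads and a ratio of 5.49 (3.29 to 9.67). Bcl3, an atypical inhibitor of NF-kappa-B, had a ratio of 2.15 and the repressor Bcl6 one of 2.09, and both turned under median-of-ratios scaling. Myc, the growth regulator, was 2.65-fold lower (1.97 to 3.60). The list kept 2 of its 4 higher calls with TMM, with median-of-ratios factors and with the assumed variation, and the call of Myc was lost with the last.

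Positive acute-phase proteins had 12 of 53 genes in the table, 11 higher and 1 lower, with a median log2 ratio of 2.60. Of all rows 63.5% were higher, with a median of 1.24. The higher genes of the list include the members A2m, Serpina3n and Timp1, whose choice fixed their calls. Serping1, the inhibitor of complement C1, had 2015 and 22897 reads and was the most abundant of the list in transfected cells at 1669 RPKM (ratio 12, interval 11.4 to 12.5). The remaining higher genes were named after their values were seen. Among these, the metalloreductase Steap4 had 2 and 80 reads (ratio 42.1, interval 11.3 to 353). Ptx3, a pentraxin made outside the liver, had a ratio of 10.5 (7.26 to 15.8), and Il1rn, the interleukin 1 receptor antagonist, one of 9.07 (6.65 to 12.6). Lbp, which binds bacterial lipopolysaccharide, had a ratio of 3.99 and Sod2 one of 2.88. Haptoglobin (Hp) had a ratio of 2.36, and ceruloplasmin (Cp) one of 2.22 that turned under median-of-ratios scaling.

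With TMM, median-of-ratios factors and the assumed variation, 8, 6 and 8 of the 12 positive acute-phase genes were called higher. The shares of all rows called higher were 31.6%, 22% and 33.5% in that order. Negative acute-phase proteins, whose plasma levels drop in the liver response, had 3 of 16 genes in the table, and all 3 were higher. In the main setting 63.5% of all rows were higher. Ttr, transthyretin, was 3.61-fold higher and Igf1 3.13-fold higher. Serpina6, the corticosteroid-binding globulin, was read 0 and 25 times. Setting the untransfected count at a floor of 3 reads gives 8.77-fold more, and the exact lower limit is 6.62-fold. With median-of-ratios factors 1 of these 3 was called higher, and Ttr was at 1.57 and Igf1 at 1.36. With TMM 2 of the 3 were called.

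**Figure D5:**
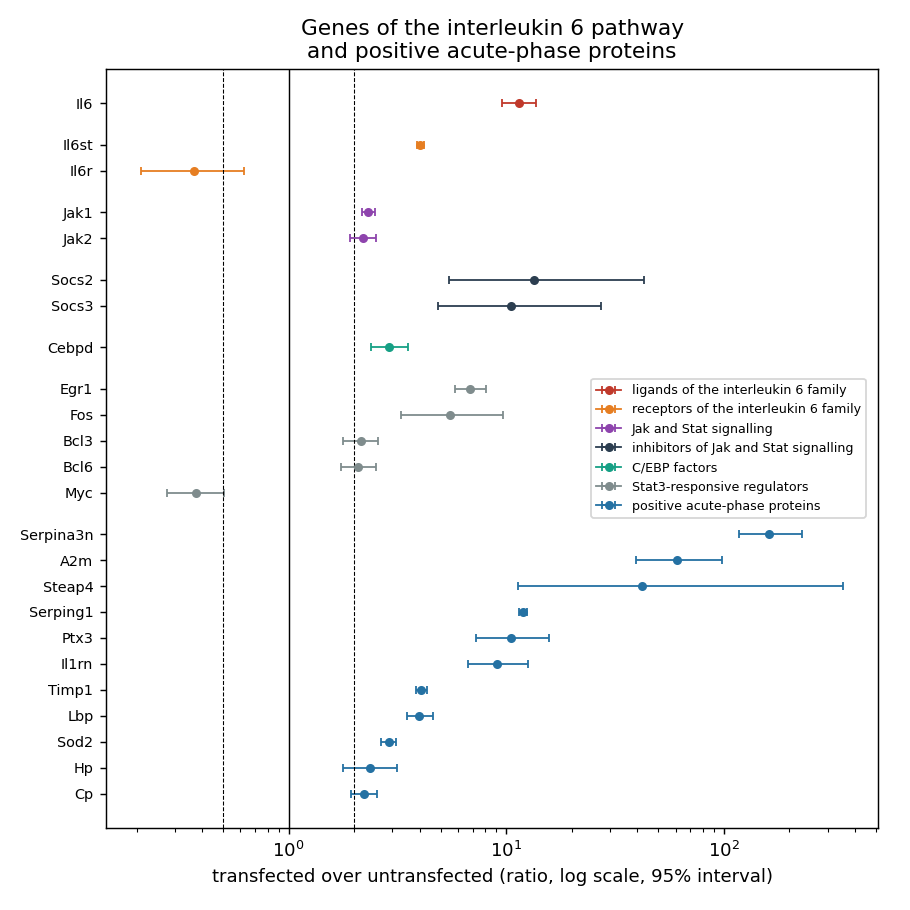
Ratio of transfected to untransfected cells on a log axis, with exact 95% intervals of counting error, for the genes of the interleukin 6 pathway and the positive acute-phase list that are described here. Colours mark the lists, the solid line marks 1 and the dashed lines 2-fold differences. Il6r and Myc lie left of 1, and Serpina3n has the largest ratio at 162.

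Relatives of the protease inhibitors went both ways. The serpins in the table were split, 4 higher and 4 lower, where 63.5% of all rows were higher. Serpina3n and Serping1 were higher, and Serpinh1, a collagen chaperone, had a ratio of 2.13 that turned under median-of-ratios scaling. Serpinb9, an inhibitor of granzyme B, was 8.83-fold lower, and Serpine2, an inhibitor of thrombin picked after its values were known, was 7.73-fold lower. Timp1 also stood against its relative Timp3, a matrix-bound inhibitor with 126 and 3 reads and a ratio of 0.025 (0.0051 to 0.075).

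The metalloproteinases and their relatives, the enzymes that Timp proteins bind, had 9 higher and 5 lower of 14 listed genes. This is near the share of all rows, of which 63.5% were higher. Mmp2, gelatinase A, was at 459 and 1118 RPKM (ratio 2.44, interval 2.38 to 2.49). Its call was lost with TMM (ratio 1.42), with median-of-ratios factors (1.06) and with the assumed variation. Mmp3, stromelysin 1, was 8.45-fold lower (7.32 to 9.79), Adamts1 4.98-fold lower and Adam19 3.03-fold lower. Adamtsl3, one of the lower genes, was included by its symbol but lacks a protease domain, and it was named after its values were seen. The level of Timp1 lay below that of Mmp2, the most abundant listed enzyme, in both libraries, at 235 against 459 RPKM and at 960 against 1118 RPKM.

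Known inducers of interleukin 6 and their receptors had 9 of 27 genes in the table, 7 higher and 2 lower. Of all rows 63.5% were higher, the share to set beside each count of higher genes in this paragraph. The higher calls of the list were not stable to scaling, with 2 under TMM, 1 under median-of-ratios factors and 3 with the assumed variation. These settings called 31.6%, 22% and 33.5% of all rows higher. Il1b, interleukin 1 beta, named after its values were seen, had 6 and 34 reads (ratio 5.96, interval 2.47 to 17.4). Il1rap, the shared chain of receptors for the interleukin 1 family, had a ratio of 2.62 and Tlr2, a receptor for bacterial lipoproteins, one of 3.42. Ptgs2, cyclooxygenase 2, had a ratio of 2.04 that turned under median-of-ratios scaling. Tlr5, a receptor for bacterial flagellin named after its values were seen, was on the lower side with 73 and 16 reads. Il33, an alarmin of the interleukin 1 family, went from 71 to 3171 reads (ratio 47.0, interval 37.1 to 60.3), and its receptor chain Il1rl1 was 3.58-fold higher (3.34 to 3.85). Of 10 listed interleukins and their receptors 9 were higher, or 7 with TMM and 4 with median-of-ratios factors, and Il6r was the exception. Among NF-kappa-B factors and inhibitors, 3 of 18 were in the table and all were higher, with ratios of 2.54 for Nfkb1, 2.31 for Ikbke and 2.15 for Bcl3. None of the 3 was called with TMM, with median-of-ratios factors (1.10, 1.01 and below 1 in that order) or with the assumed variation. No regulator of Il6 messenger RNA stability from a list of 16 was in the table.

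The rows most like each member were taken as the nearest in log2 ratio and log2 mean RPKM, over 2 libraries only. Nearest to Il6 were Smarca2 and Ly6e, with ratios of 9.67 and 13.7. Nearest to Serpina3n were Mfap4 and Cxcl13, with ratios of 167 and 432. Cpxm2 and Rdh5 lay next to A2m at ratios of 54.0 and 54.7, Sod3 and Dcn next to Timp1 at 3.93 and 4.27, and Col4a5 and Snx1 next to Cebpd at 3.06 and 2.63. Serpina3n had the most distant neighbours, 0.77 and 1.44 log2 units away, against 0.086 and 0.18 for Cebpd.

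Markers of the labelled cell type were present in both libraries: Thy1 had 11414 and 3178 reads and Itgb1 30354 and 14169 reads. Both were lower in the transfected library, and of 12 such markers 7 were in the table, 4 higher and 3 lower. This split is near that of all rows, of which 63.5% were higher. Pdgfra and Cxcl12 were among the higher markers, with ratios of 2.58 and 2.82. Neither kept its call with TMM or median-of-ratios factors. Macrophages and hepatocytes also make several of the proteins described here. Of 14 macrophage markers 1 was in the table, Cd68 with 5 and 26 reads and a summed level of 0.524 and 2.86 RPKM. Of 17 blood cell markers 2 were listed, Cd74 and RT1-Db1, and their summed level was 11.9 RPKM without and 0.581 RPKM with transfection. Of 15 hepatocyte markers Ttr alone was listed, at 7.69 and 27.7 RPKM. Among 9 endothelial markers Egfl7 alone was listed, at 5.30 and 1.57 RPKM. The part of these cell types in the levels of the 5 genes was not tested.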

How the data were processed

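Poly(A) RNA of 2 libraries was sequenced on an Illumina GA instrument, per the labels' protocols, and the submitters' processing notes name the build rn4. The aligner and counting method were not given in the sources used here. The authors deposited 1 table of read counts per gene without scaling, RPKM values with 0.001 in place of 0 reads, a log2 ratio of the RPKM, and a p-value and false discovery rate of an unnamed test. The deposited p-values compare 1 library with 1 library and were not used. The smallest absolute deposited log2 ratio was 1.00, so the table holds changed genes only. Of its rows, 660 (28.4%) name no rat gene, stayed in the counts of rows and were not used for naming. A gene given as outside the table was absent by symbol, and the unnamed rows were not searched for it.

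Library totals were computed from reads, length and RPKM. Ratios carry exact binomial (Clopper-Pearson) 95% intervals and levels carry exact Poisson intervals. In ratios a count of 0 was replaced by a set floor of 3 reads, while the exact intervals used the count itself. These intervals cover counting error only, since reads amplified by PCR and lacking molecular identifiers are not independent molecules. The interval code was tested on simulated data. Alternatives were TMM factors (edgeR 4.0.16), median-of-ratios factors, sums of listed reads, RPKM + 1, an assumed biological coefficient of variation of 0.4, and a minimum of 30 reads. Named were the 5 members, up to 4 listed genes per list with the highest mean RPKM, and the 2 nearest rows per member. Some of the genes named this way are not reported here, though counts per list include them. Members and lists were chosen with earlier results of these data known. Promoter sequences are from RefSeq (GRCr8), in which 3 of the 5 members had an entry. The promoter coordinates belong to GRCr8 and not to rn4.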

Additional observations from a re-analysis of the deposited data

How the results depend on the processing

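All 5 genes kept a ratio above 1 under every alternative run. With TMM factors the ratios were 6.68 for Il6, 1.69 for Cebpd, 35.5 for A2m, 94.7 for Serpina3n and 2.38 for Timp1. With median-of-ratios factors they were 4.97, 1.26, 26.4, 70.5 and 1.77 in that order, and Cebpd and Timp1 were no longer called. With sums of listed reads Timp1 was at 4.38. Ratios of RPKM + 1 were 22.5 for A2m and 96.6 for Serpina3n. With a coefficient of variation of 0.4 assumed between cultures the ratio of Cebpd, 2.89, was no longer called. The rows called higher numbered 1476, or 734 with TMM, 512 with median-of-ratios factors and 780 with the assumed variation, which left 400 lower rows in place of 849. The pathway list genes called higher numbered 48, or 27, 21 and 29 in that order. Both sets of factors come from rows selected for change, and which scaling is right was not tested. With the 150 bases before the start, 1 member promoter in place of 2 held the C/EBP letters and 0 in place of 1 the cyclic AMP element. No paired analysis was possible because each group is 1 library. Depth limits A2m and Serpina3n most, whose untransfected levels rest on 21 and 38 reads.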

Other observations

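In the authors' deposited gene ontology annotation, 4 of the 5 genes (Il6, A2m, Serpina3n and Timp1) carry the term for negative regulation of peptidase activity. Of the 26 rows with that term, 12 were higher and 14 lower in the transfected library, so the term as a whole was split. Over all rows 63.5% were higher. The genes named here were chosen after their values were seen. Spint2, a Kunitz-type inhibitor of cell-surface serine proteases, was at 42.6 and 112 RPKM (ratio 2.63, interval 2.36 to 2.94). Wfdc1, a secreted whey acidic protein domain protein, was at 153 and 10.3 RPKM and 14.8-fold lower. Crim1, a transmembrane protein with cysteine-rich repeats, was 3.61-fold lower, from 133 to 36.8 RPKM.

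Of the 5 genes, 0 carry the deposited term for acute-phase response, which 1 row has. The term for acute inflammatory response was carried by 8 rows, 5 higher and 3 lower, and by Il6 alone of the 5 genes. This split is near that of all rows, of which 63.5% were higher. Among the 8 rows, Il6, Il6st, Lbp, Hp and Ass1 were higher, with Ass1 at 0 and 50.8 RPKM. The lower ones included F3, tissue factor, which starts blood coagulation, at 608 and 209 RPKM (2.92-fold lower), and Aoc3, a vascular amine oxidase, at 15.0 and 2.01 RPKM (7.48-fold lower).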
